A study of Mus musculus with 6 samples.

Results

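Arc, Npas4, Homer1, Bdnf, Vgf, Nptx1, Nptx2 and Nrn1 are 8 genes that many neurons transcribe after electrical activity and whose products act at synapses or in the control of activity-dependent transcription. The set is given by name, with no threshold on a measured value, and holds 8 of the 38561 genes in the table. Vomeronasal organs of male mice of the outbred CD-1 stock were lysed, and RNA was recovered with an antibody to ribosomal protein S6 in its phosphorylated form. The pup exposure group had 3 libraries and the control exposure group, whose control stimulus the labels do not describe, had 3. Age, time after exposure and any genotype beyond the strain are not in the labels. Nor do they say that replicates were different animals, and p-values here therefore reflect spread among libraries that may be technical. The comparison bears on whether this group of genes was represented differently in the RNA recovered with the antibody after pup exposure. Without input RNA, enrichment of active cells was not tested.

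A neuron that fires lets calcium in, and calcium-dependent kinases act on transcription factors such as CREB, which binds the cyclic AMP response element in the promoters of many activity-induced genes. A first wave of induced genes encodes transcription factors and a few direct effectors such as Arc, and a later wave encodes secreted and synaptic proteins that change how the cell connects. S6 is phosphorylated in many recently active neurons, and its pull-down has been used to enrich the RNA of such cells. The vomeronasal organ holds sensory neurons that detect pheromones, together with supporting cells, glands, vessels and glia.

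Total counts were 10590716 to 11240065 in a control library and 18199476 to 20871266 in a pup exposure library. CPM are counts normalised to library size, after scaling by TMM factors of 0.605 to 1.39, which correct for differences in RNA composition. The sensory neuron marker Omp was at 664 to 922 CPM in all 6 libraries, while Trpc2 was not matched to a row. In edgeR's quasi-likelihood test across 15498 genes, 0 genes passed a Benjamini-Hochberg adjusted p of 0.05, while at an unadjusted p under 0.05 it found 978 higher in the pup exposure group and 723 lower. DESeq2 called 127 genes. In bulk RNA, fewer cells of a type and less RNA per cell cannot be told apart, and without input RNA neither can the share of ribosomes that carried the phosphate.

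Of the 8 genes, 5 had enough counts to be tested: Arc, Homer1, Bdnf, Nptx2 and Nrn1. Npas4, Vgf and Nptx1 were near or below the limit of detection. In edgeR's test 0 of the 5 passed the adjusted threshold, where 0% of all genes did, and 0 of the 5 had an unadjusted p under 0.05, where 11% of all genes did. DESeq2 also called 0 of them, but it gave no adjusted p for Bdnf and Nptx2, which therefore could not be called. The pup exposure and control exposure libraries overlapped for all 5 genes tested, where 19.8% of all genes tested had groups that did not overlap. Homer1 and Nptx2 had positive log2 fold changes and Arc, Bdnf and Nrn1 negative ones, with a median over the 5 of -0.00069, beside 0.030 over all genes tested.

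Levels can be compared between genes only per length, here as CPM per kilobase of annotated exon. Arc had the highest mean level over the 6 libraries, 3.42 CPM per kb, followed by Nrn1 at 1.99, Homer1 at 1.17 and Nptx2 at 1.13. Bdnf stood lower at 0.219 CPM per kb, and Nptx1 (0.0334), Npas4 (0.0271) and Vgf (0.00832) lower still. Arc was above Nrn1 in 4 of the 6 libraries, Nrn1 above Homer1 in 5 and Homer1 above Nptx2 in 3, so the neighbours among the top 4 did not keep 1 order from library to library. The step from Nptx2 down to Bdnf held in 6 of 6 libraries, and that from Bdnf to Nptx1 in 5. Homer1 has 12 annotated transcripts whose exons together span 11976 bases, while its longest transcript has 5713, and divided by that length its mean was 2.45 CPM per kb, near that of Nrn1 on the same measure (2.52). Ranks among the 23900 genes with a count used CPM not divided by length, so they do not order the members per length. On that measure Homer1 averaged percentile 70.0, Arc 66.0, Nrn1 53.8, Nptx2 48.1 and Bdnf 38.0.

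**Figure D1:**
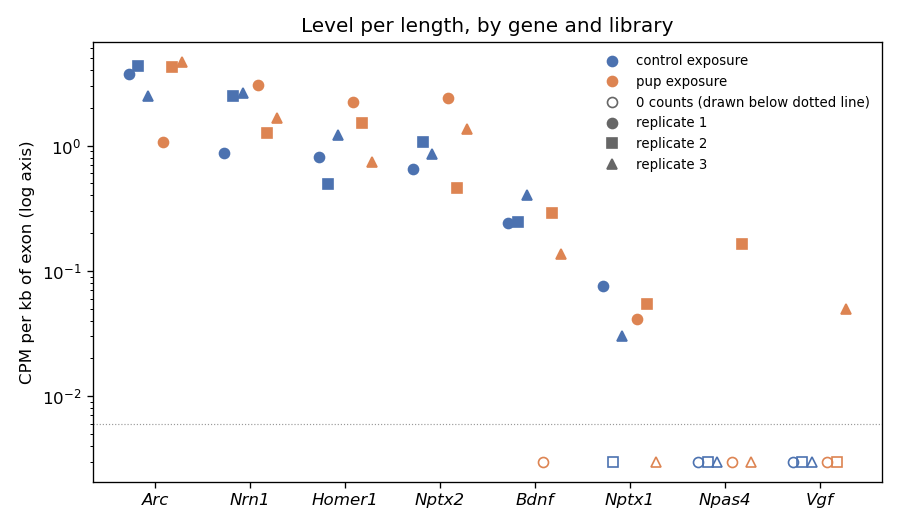
Level of each gene in each library, in CPM per kb of annotated exon on a log axis, with blue for control exposure, orange for pup exposure, marker shape for the replicate number, and open symbols below the dotted line for libraries with 0 counts. The genes fall from Arc at a mean of 3.42 to Vgf at 0.00832 CPM per kb, and Npas4 and Vgf each have a count in 1 library.

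Arc encodes a protein of dendrites and spines that promotes the removal of AMPA receptors from the membrane and can assemble into capsid-like shells. The gene (ENSMUSG00000022602) lies on chromosome 15 from 74669083 to 74672570 on the minus strand of GRCm38. In the controls its level was 11.4, 13.3 and 7.66 CPM in replicates 1, 2 and 3, and in the pup group 3.27, 13.0 and 14.1 CPM. Both the highest and the lowest of the 6 values were pup exposure libraries, and the controls lay between them. The means were 10.8 ± 2.85 and 10.1 ± 5.97 CPM (SD, n = 3 each), with a log2 fold change of -0.09 (SE 0.55, edgeR adjusted p = 0.961) and a 95% interval of -1.30 to 1.12, which holds folds from 0.406 to 2.17. The sign depended on single libraries: the log2 fold change was 0.33 without pup exposure replicate 1 and 0.071 without control exposure replicate 2. With library totals only it was 0.16, where the median of all genes moved to 0.31.

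Npas4 encodes a transcription factor that is induced by calcium entry and in turn drives Bdnf and other genes of the second wave. Its gene (ENSMUSG00000045903, chromosome 19 from 4984355 to 4990316, minus strand) had 19 counts in pup exposure replicate 2 and 0 in the other 5 libraries. Those 19 counts are 0.673 CPM, and would be about 9.86 counts at the depth of the smallest library. A count of 0 allows up to 3 counts, which in the control exposure libraries is 0.235 to 0.469 CPM and in the pup exposure libraries without a count 0.148 to 0.161 CPM, on the same TMM scale. These limits cover counting error only, since reads of amplified cDNA without molecular identifiers are not independent molecules. Npas4 was thus not detectable in 5 libraries at this depth, and its presence in 1 library gives no comparison between the groups.

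RefSeq promoters on GRCm38.p6 were at hand for 3 of the 8 genes, Npas4, Homer1 and Bdnf, with 10 start sites in all. The core of the cyclic AMP response element, TGACGT on either strand, is in the 250 bases before 1 start of each gene, and the full palindrome TGACGTCA, which contains the core, in none of the 10. Among all 32851 RefSeq promoters, 6.47% have the core and 1.55% the palindrome. The sites are shown because CREB binds this element in many activity-induced genes and because the 3 genes span the range of levels from nearly unread to well detected. A match is a description of the sequence and not a bound site.
Npas4, chr19:4990129-4990158, minus strand, 2 cores in capitals: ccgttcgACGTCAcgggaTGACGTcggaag
Homer1, chr13:93303507-93303756, plus strand, 3 cores in capitals: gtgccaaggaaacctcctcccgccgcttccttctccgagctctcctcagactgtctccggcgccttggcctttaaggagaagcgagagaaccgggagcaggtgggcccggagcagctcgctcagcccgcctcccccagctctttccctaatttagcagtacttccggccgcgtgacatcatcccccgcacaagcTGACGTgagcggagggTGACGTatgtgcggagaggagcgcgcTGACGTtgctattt
Bdnf, chr2:109692186-109692435, plus strand, 1 core in capitals: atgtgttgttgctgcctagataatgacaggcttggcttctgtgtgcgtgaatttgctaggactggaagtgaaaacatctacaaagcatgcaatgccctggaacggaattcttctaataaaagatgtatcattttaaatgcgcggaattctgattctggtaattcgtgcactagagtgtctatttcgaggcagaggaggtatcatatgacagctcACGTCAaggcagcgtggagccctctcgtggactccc
The Npas4 cores start 180 and 169 bases before the RefSeq start, those of Homer1 between 56 and 14 bases before it, and that of Bdnf 36 bases before the third of its 7 starts. For Npas4 only a 30-base stretch is given, because all 250 bases of the window, with both cores, lie inside an annotated untranslated region of the gene in GENCODE M21, whose start is farther upstream than that of RefSeq.

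Homer1 encodes a scaffold that joins receptors at the postsynapse to Shank and to inositol trisphosphate receptors. Activity induces a short isoform that lacks the part through which long Homer proteins pair with each other, and the counts are per gene, so the isoforms are not separated here. The gene (ENSMUSG00000007617) lies on chromosome 13 from 93299635 to 93405129 on the plus strand. In the controls it was at 9.72, 5.92 and 14.5 CPM and in the pup group at 26.9, 18.2 and 8.85 CPM. Pup exposure replicates 1 and 2 lay above every control, while replicate 3 lay within the control range.

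Of the 5 genes tested Homer1 had the smallest p. Its means were 10.1 ± 4.32 and 18.0 ± 9.01 CPM (SD, n = 3 each), with a log2 fold change of 0.84 (SE 0.51, edgeR unadjusted p = 0.126, adjusted p = 0.544) and a 95% interval of -0.28 to 1.96. The difference was thus within the spread between libraries, and the interval still holds a fold of up to 3.90. It kept its positive sign in all 17 alternatives run, from 0.44 without pup exposure replicate 1 to 1.23 with library totals only, with edgeR, DESeq2 or limma adjusted p from 0.370 to 0.835. Without pup exposure replicate 3 the log2 fold change was 1.18 with an unadjusted p of 0.0447 in edgeR and an adjusted p of 0.443.

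**Figure D2:**
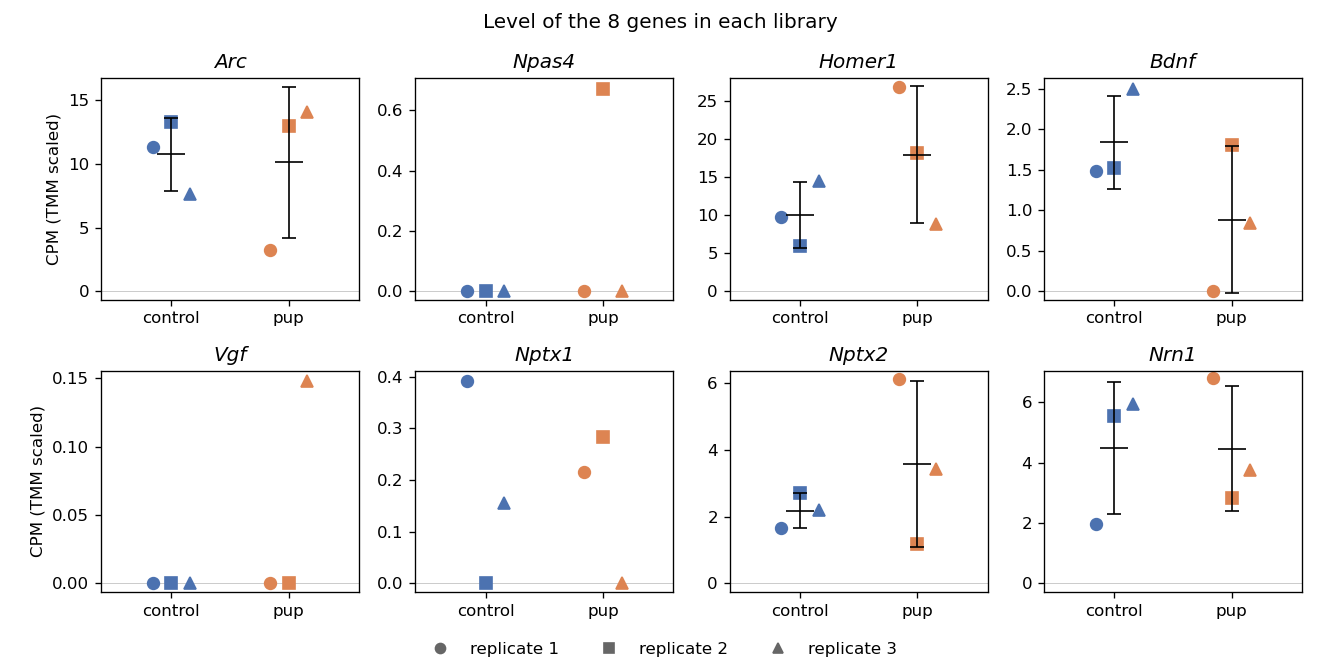
Level of the 8 genes in CPM for control exposure (blue) and pup exposure (orange), with 1 point per library, marker shape for the replicate number, and, for the 5 genes tested, the mean and SD (n = 3) as bars. Homer1 had 2 pup exposure libraries above every control, Bdnf had 0 counts in pup exposure replicate 1, and the groups overlapped in each gene tested.

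Bdnf encodes brain-derived neurotrophic factor, a secreted ligand of the receptor TrkB that is made from several promoters, of which the one before the fourth exon is known to respond to calcium. Its gene (ENSMUSG00000048482, chromosome 2 from 109674700 to 109727007, plus strand) had 19, 17 and 16 counts in the controls and 0, 51 and 17 in the pup group. In CPM these were 1.49, 1.52 and 2.50 against 0, 1.81 and 0.841. Both pup exposure replicates 1 and 3 lay below every control, and replicate 2 lay within the control range.

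The Bdnf means were 1.84 ± 0.574 and 0.882 ± 0.904 CPM (SD, n = 3 each), and the log2 fold change was -1.03 (SE 1.26, edgeR adjusted p = 0.770). Its 95% interval, -3.78 to 1.72, was the widest of the 5 genes, and holds folds from 0.0727 to 3.29. Without pup exposure replicate 1, the library with 0 counts, the estimate was -0.45 on the log2 scale, and with replicate 2 of that group left out it was -2.09. Of the 50-base words of its longest transcript 10.7% also occur, on either strand, in a transcript of another gene. An annotated antisense gene, which has no row among the counts, overlaps 896 of its exonic bases, and both figures can cover the same bases. Whether the counting used strand is not given in the sources used here, so Bdnf counts are uncertain to that extent.

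Vgf encodes a secreted protein of dense-core vesicles that is cut into peptides and rises with BDNF signalling in other neurons. Its gene (ENSMUSG00000037428, chromosome 5 from 137026392 to 137033351, plus strand) had 3 counts in pup exposure replicate 3 and 0 in the other 5 libraries. Those 3 counts equal the limit that a count of 0 allows, so no difference between the groups was detectable. Among other genes of the regulated secretory pathway levels ranged widely in the same libraries. Per length, chromogranin Chga averaged 138.7 CPM per kb over the 6 libraries, carboxypeptidase Cpe 69.6, chromogranin Chgb 16.5 and secretogranin Scg2 0.471, beside 0.00832 for Vgf. The convertase gene Pcsk2 was at 1.23 and Pcsk1 at 0.167 CPM per kb. Scg2 had 3 to 66 counts in a library and Pcsk1 0 to 59, so both were also low.

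Nptx1 and Nptx2 encode neuronal pentraxins, secreted proteins that bind and cluster AMPA receptors, of which Nptx2 (Narp) is the activity-induced form. Nptx1 (ENSMUSG00000025582, chromosome 11 from 119538719 to 119547753, minus strand) had 5, 0 and 1 counts in the controls and 4, 8 and 0 in the pup group. It was at the limit of detection in both groups, with 6 counts in all against 12 at greater depth. Nptx2 (ENSMUSG00000059991, chromosome 5 from 144545902 to 144557478, plus strand) was at 1.65, 2.69 and 2.19 CPM in the controls and 6.11, 1.17 and 3.41 CPM in the pup group. In every library Nptx2 was above Nptx1 per length, at means of 1.13 and 0.0334 CPM per kb.

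For Nptx2, pup exposure replicates 1 and 3 lay above every control and replicate 2 below every control. The means were 2.17 ± 0.522 and 3.56 ± 2.48 CPM (SD, n = 3 each), with a log2 fold change of 0.71 (SE 0.79, edgeR adjusted p = 0.744) and a 95% interval of -1.02 to 2.43. The value rested on single pup exposure libraries, since it was 0.073 without replicate 1 and 1.15 without replicate 2.

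Nrn1 encodes neuritin, also called CPG15, a small protein anchored to the outer face of the cell membrane that promotes neurite and synapse growth. The gene (ENSMUSG00000039114) lies on chromosome 13 from 36725361 to 36735131 on the minus strand. It was at 1.96, 5.56 and 5.94 CPM in the controls and 6.81, 2.83 and 3.76 CPM in the pup group. The groups overlapped over nearly the whole range, and the means of 4.49 ± 2.20 and 4.47 ± 2.08 CPM (SD, n = 3 each) differed by far less than their spread.

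The log2 fold change of Nrn1 was -0.00069 (SE 0.67, edgeR adjusted p = 1.0), with a 95% interval of -1.46 to 1.46, which holds folds from 0.364 to 2.74. Exons of Fars2, a mitochondrial tRNA synthetase gene on the opposite strand, share 501 bases with those of Nrn1. Fars2 was at 32.7, 39.9 and 38.3 CPM in the controls and 18.1, 20.1 and 26.1 CPM in the pup group (log2 fold change -0.79, SE 0.35, edgeR adjusted p = 0.449). Without strand, reads from the shared stretch cannot be told apart, and the part of Fars2 in the Nrn1 counts was not tested.

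**Figure D3:**
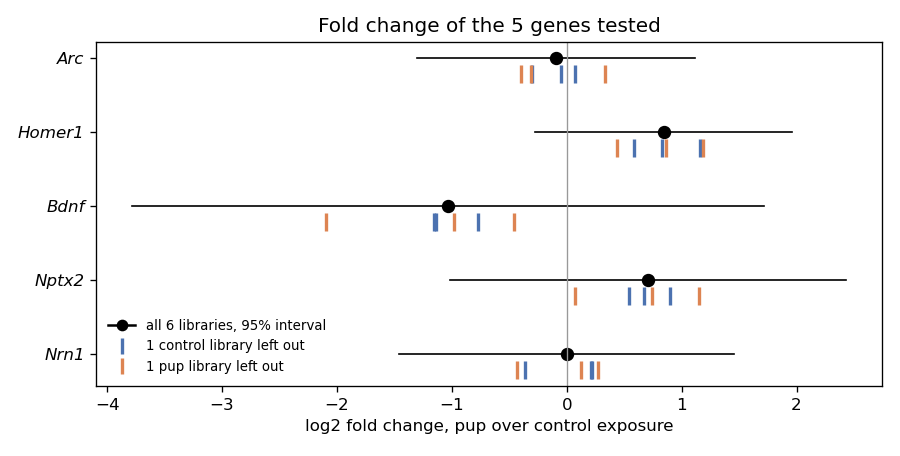
Log2 fold change of the 5 genes tested, pup exposure over control exposure, with black points and lines for the estimate and its 95% interval from all 6 libraries, and ticks for the estimate with 1 control exposure (blue) or 1 pup exposure (orange) library left out. Every interval holds 0, and the estimates of Arc and Nrn1 lie on both sides of 0 when single libraries are left out.

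The 5 genes did not all vary alike from library to library. Pup exposure replicate 1 held the highest value of Homer1, Nptx2 and Nrn1 and the lowest value of Arc and Bdnf, so it was an extreme library for each of the 5. Among all genes tested that library was the highest of 6 in 19.7% and the lowest in 23.4%. With each gene's log2 CPM centred on its mean over the 6 libraries, pup exposure replicate 1 stood at 1.11 for Homer1, 1.25 for Nptx2 and 0.71 for Nrn1, against -1.49 for Arc and -3.13 for Bdnf. Pup exposure replicate 2 stood at 0.46 for Arc, 0.84 for Bdnf and 0.55 for Homer1, against -1.02 for Nptx2 and -0.52 for Nrn1. Leaving out pup exposure replicate 1 gave log2 fold changes of 0.33 for Arc, 0.44 for Homer1, -0.45 for Bdnf, 0.073 for Nptx2 and -0.44 for Nrn1.

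Likeness between profiles was measured as the root mean square difference of centred log2 CPM over the 6 libraries. Among the 10 pairs of the 5 genes it was smallest for Nptx2 and Nrn1 (0.525) and largest for Bdnf and Nptx2 (2.11). Arc lay nearest to Bdnf (0.997) and at 1.20 to 1.35 from the other three. The median difference from all other tested genes was 0.964 for Arc, 0.968 for Homer1, 0.951 for Nptx2 and 0.871 for Nrn1. Homer1, Nptx2 and Nrn1 lay nearer to each other than these medians, at 0.525 to 0.900, while Arc lay farther than its median from each of the other four. Bdnf, with a median of 1.59, lay nearer than that to Arc only.

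**Figure D4:**
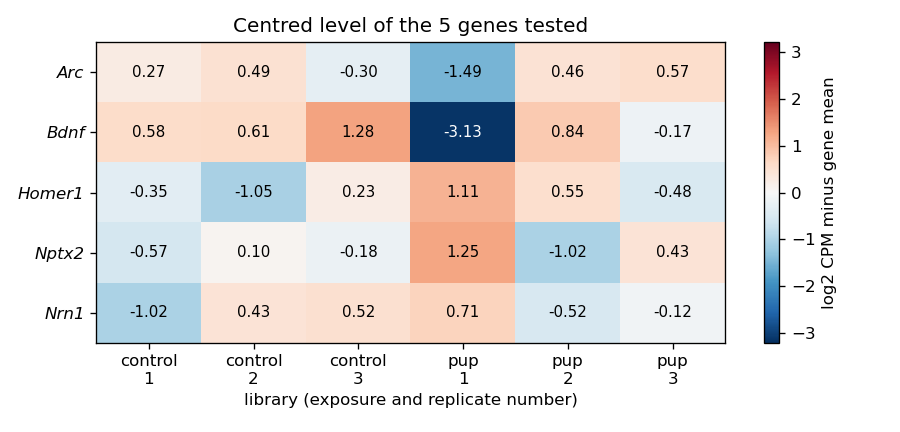
Log2 CPM of the 5 genes tested, each minus its mean over the 6 libraries, with libraries in columns and genes in rows, red above and blue below the gene's mean. In the column of pup exposure replicate 1, Homer1 (1.11), Nptx2 (1.25) and Nrn1 (0.71) are above their means and Arc (-1.49) and Bdnf (-3.13) below.

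The tested genes with the profiles nearest to each member were not activity-induced genes of the fixed lists. Nearest to Arc were Rab23, a small GTPase (0.129), Lztr1 (0.133) and Pdxdc1 (0.144), and nearest to Homer1 were Trappc8, part of a vesicle tethering complex (0.115), the kinase gene Cdk6 (0.127) and Abi2, a regulator of actin (0.133). Il6ra, an interleukin receptor gene (0.0995), Slc16a6 (0.198) and Phf19 (0.224) lay nearest to Bdnf. Those nearest to Nptx2 were the phospholipase gene Pla2g2e (0.145), Mettl25 (0.156) and Psmg1 (0.174), and to Nrn1 the peroxisomal gene Pex11a (0.109), 1810062G17Rik (0.109) and the vomeronasal receptor gene Vmn1r68 (0.127). With 6 libraries and 15498 genes, some genes lie near any profile.

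Libraries of a group also spread more for some members than for others. The within-group SD of log2 CPM was 0.870 for Arc and 0.728 for Homer1, beside medians of 0.590 and 0.538 over the 500 tested genes nearest in level to each, and was larger than in 80.4% and 78.0% of them. For Bdnf it was 1.49 (median 1.29), for Nptx2 0.847 (0.933) and for Nrn1 0.755 (0.758).

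Genes around the 8 members were taken from 6 lists, which together named 122 genes, of which 102 were tested. The lists were chosen with earlier results of these data known, and the alternatives refit the same libraries. Counts and medians over the lists are thus descriptive and not independent support. In edgeR's test 0 of the 102 passed the adjusted threshold. At an unadjusted p under 0.05 there were 11 higher, where 6.31% of all genes tested were higher, and 5 lower, where 4.67% were lower. A positive log2 fold change was found in 73 of the 102, beside 51.5% of all genes tested, and the median was 0.37, beside 0.030. The direction of that median was the same under each alternative, from 0.29 without pup exposure replicate 1 to 0.76 with scaling by neuron marker counts, where the median of all genes moved to 0.39. DESeq2 called Creb1 higher (log2 fold change 1.48, adjusted p = 0.0496) and Camk2a lower (-2.20, adjusted p = 0.00908).

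Upstream of the members, 19 of the 25 tested genes of calcium and CREB signalling had a positive log2 fold change, with a median of 0.50, and at an unadjusted p under 0.05 there were 4 higher and 1 lower. Creb1, the gene of the CREB transcription factor, was at 20.6, 17.8 and 12.5 CPM in the controls and 50.1, 61.7 and 34.4 CPM in the pup group (log2 fold change 1.52, SE 0.39, edgeR adjusted p = 0.375). Camk2a, a calcium-dependent kinase of synapses, was at 44.2, 25.1 and 17.2 against 9.60, 3.90 and 5.83 CPM (-2.17, SE 0.51, edgeR adjusted p = 0.375). For both genes the groups did not overlap, and neither passed the adjusted threshold in edgeR on the filtered genes, while without the filter Camk2a did (adjusted p = 0.00837). Mef2d, another calcium-responsive transcription factor (1.20, SE 0.43), and Rps6ka3, a kinase that phosphorylates CREB and S6 (1.45, SE 0.54), each had an edgeR adjusted p of 0.424.

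Among the 17 tested activity-induced transcription factors, 13 had a positive log2 fold change, with a median of 0.57, and at an unadjusted p under 0.05 there were 3 higher and 1 lower. Egr1 was at 18.6, 30.1 and 17.5 CPM in the controls and 42.5, 62.4 and 46.1 CPM in the pup group, with groups that did not overlap (log2 fold change 1.19, SE 0.38, edgeR adjusted p = 0.405). Fos, the classical marker of recent activity, was at 27.9, 37.8 and 26.4 against 41.6, 55.7 and 40.5 CPM (0.58, SE 0.35, edgeR adjusted p = 0.543), also without overlap. Arc differed from these in pup exposure replicate 1, where Egr1 and Fos were above every control while Arc was below every control. That was not particular to Arc. Nr4a1, Nr4a3 and Egr2 of the same list were also below every control in that library, while Fosl2 and Jun were among those above. Nr4a3, unlike Arc, was below every control in each pup exposure library. Egr2 was at 0.107 CPM in pup exposure replicate 1, under the 0.161 CPM that a count of 0 allows there. Fosl2 (1.30), Jun (1.0) and Nr4a3 (-1.13) were the other factors with the smallest p. Egr4 had 0 counts in all libraries, and Egr3, with Npas4, was not tested, at 0 to 3 counts per library.

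**Figure D5:**
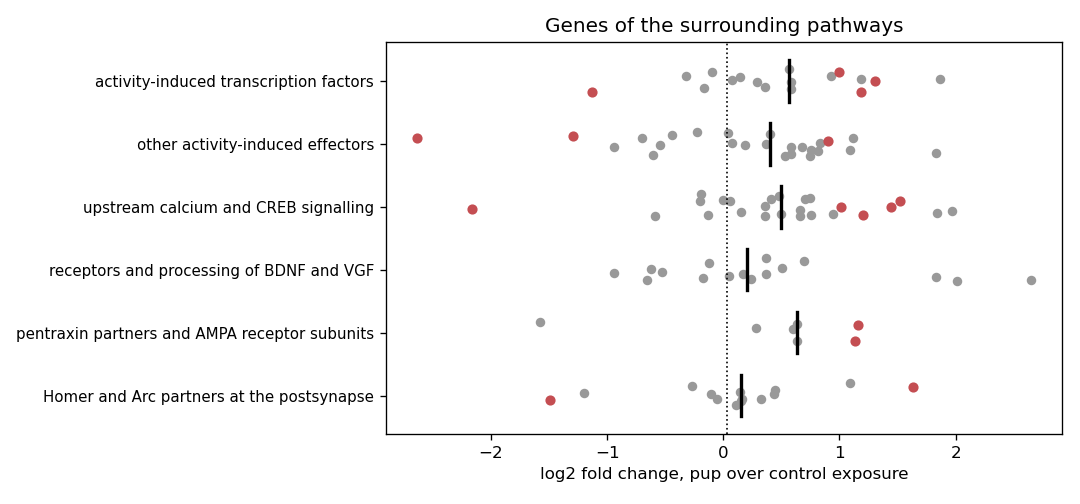
Log2 fold change, pup exposure over control exposure, of each tested gene of the 6 surrounding lists (vertical jitter is arbitrary), with red for an unadjusted p under 0.05 in edgeR, a black bar for the list's median and a dotted line for the median of all genes tested (0.030). The list medians run from 0.15 to 0.63 and 0 genes passed the adjusted threshold.

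Other activity-induced effectors had 25 tested members, with 17 positive log2 fold changes and a median of 0.40. At an unadjusted p under 0.05, Syt4, a vesicle protein (0.90, SE 0.38), was higher, and the clock gene Per1 (-1.29, SE 0.57) and Inhba, an activin subunit (-2.64, SE 1.20), were lower, with edgeR adjusted p of 0.447 to 0.454. Inhba values overlapped between the groups, and without a filter on low counts edgeR called it lower (adjusted p = 0.0491) together with Camk2a (0.00837). Dusp1, a phosphatase that limits MAP kinase signalling, had the next smallest p (1.09, SE 0.51).

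Receptors and processing enzymes of BDNF and VGF comprised 16 genes tested, their median log2 fold change was 0.20, and 0 had an unadjusted p under 0.05. The TrkB gene Ntrk2 was detected in all 6 libraries at 48.1 to 100.5 CPM (log2 fold change -0.17, SE 0.37), and the sorting receptor gene Sort1 at 62.2 to 140.0 CPM (0.51, SE 0.38). Ngfr, the low-affinity neurotrophin receptor gene, had counts in 3 libraries only. Pcsk5 (2.01), Cpe (0.70), Scg5 (-0.62) and Ngfr (2.65) had the smallest p, with edgeR adjusted p of 0.466 to 0.569, and the plasminogen gene Plg had 0 counts in all libraries.

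Partners of the pentraxins and subunits of AMPA receptors had 14 named genes, of which 7 were tested. Of the AMPA receptor genes only Gria3 was tested (4.06 to 15.2 CPM, log2 fold change 0.63, SE 0.55), while Gria1, Gria2 and Gria4 had at most 28, 7 and 18 counts in a library. The pentraxin receptor gene Nptxr was at 3.41 to 8.54 CPM (0.28, SE 0.55). Adam17, a sheddase, was at 6.11, 10.5 and 10.5 CPM in the controls and 21.1, 23.4 and 15.9 CPM in the pup group (1.16, SE 0.42, edgeR adjusted p = 0.424), and Nptn, an adhesion molecule, had a log2 fold change of 1.13 (SE 0.50, edgeR adjusted p = 0.447). Dlg4 (-1.58, SE 0.87) and Olfm1 (0.63, SE 0.41) had the next smallest p, with edgeR adjusted p of 0.515 and 0.568. Of the 7 tested genes, Dlg4 was the 1 with a negative log2 fold change. C1ql2 had 0 counts in all libraries.

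At the postsynapse, 14 of the 21 named partners of Homer and Arc were tested, with 9 positive log2 fold changes and a median of 0.15. Shank2, a scaffold that binds Homer proteins, was at 19.8, 18.0 and 16.4 CPM in the controls and 2.04, 11.8 and 9.79 CPM in the pup group, without overlap (-1.19, SE 0.57, edgeR adjusted p = 0.466). Its relative Shank3 was not tested, with at most 35 counts in a library. Homer2 averaged 4.74 CPM per kb over the 6 libraries, beside 1.17 for Homer1 and 0.377 for Homer3, and had a log2 fold change of 0.14 (SE 0.39). Dnm1, a dynamin of endocytosis, was at 10.7, 22.5 and 19.1 CPM in the controls and 7.83, 5.81 and 4.89 CPM in the pup group (-1.49, SE 0.46, edgeR adjusted p = 0.405), and the channel gene Trpc1 had a log2 fold change of 1.63 (SE 0.72, edgeR adjusted p = 0.447).

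The share of cell types beside the members was read from marker lists. The 10 markers of mature vomeronasal neurons with a row held 0.155% to 0.417% of counts in the controls and 0.249% to 0.295% in the pup group (exact permutation test, two-sided, p = 0.7, where 3 against 3 libraries cannot go below 0.1), and 0 of the 10 were at 0 counts throughout. Their summed level was 2560 to 3670 CPM in the controls and 2130 to 2660 CPM in the pup group. Most of that sum came from Calb2, a calcium-binding protein (1616 and 888 CPM in the group means, log2 fold change -0.86, SE 0.44, edgeR adjusted p = 0.488), and Omp. Gene by gene, 6 of the 9 neuron markers tested had a positive log2 fold change, with a median of 0.58, beside 0.37 for the pathway genes. The channel genes Ano1 and Ano2 and the cyclase gene Adcy2 were higher in each pup exposure library than in each control. The choice of these 3 followed the data, and 10.1% of all genes tested were separated in that direction. The log2 fold change was negative for Calb2, Omp (-0.19, SE 0.38) and Gng8 (-0.38, SE 0.40). In edgeR 0 of the 9 passed the adjusted threshold. Markers of progenitors and immature neurons held 0.0447% to 0.0892% of counts in the controls and 0.0508% to 0.0762% in the pup group. These shares overlapped (exact permutation test, p = 0.6, adjusted p over the 11 lists 0.99). Scaled by TMM, the summed level of the same markers was 739 to 786 CPM in the controls and 496 to 576 CPM in the pup group, without overlap. Whether the groups separated for this list thus depended on the scaling. Gng8, at group means of 331 CPM in the controls and 255 CPM in the pup group, is on both neuron lists, so their sums are not separate. Of the 9 tested markers of progenitors and immature neurons, 2 had a positive log2 fold change and 7 a negative one. Per 10000 counts of the mature vomeronasal neuron markers, Arc had 30.9, 42.2 and 29.9 counts in the controls and 13.5, 61.1 and 52.9 in the pup group. Homer1 had 26.5, 18.8 and 56.7 against 111, 85.4 and 33.2, so both genes still overlapped. Markers of sustentacular cells held 0.386% ± 0.136 and 0.215% ± 0.0263 (SD, n = 3 each), and those of red blood cells 0.0287% ± 0.00638 and 0.0122% ± 0.00496, each with an exact permutation p of 0.1 and an adjusted p over the 11 lists of 0.55. Nasal gland markers held 26.4% to 54.9% of a library, with 54.9% in control exposure replicate 3. The part of these shares in the values of the 8 genes was not tested.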

How the data were processed

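The table the authors deposited holds raw read counts, whole numbers for each Ensembl gene ID in each of the 6 libraries. Per the labels' protocols, lysates were precipitated with an antibody to phosphorylated S6, and cDNA was made with a low-input kit and sheared. The submitters' processing notes name GRCm38 as genome build. For aligner, counting tool and strand setting: not given in the sources used here. Gene IDs were named from GENCODE M21 (36639 of 38561 matched), which also gave coordinates and exon lengths, and promoters came from RefSeq (GRCm38.p6).

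Genes were kept by filterByExpr (minimum count 10, minimum total 15), scaled by TMM and tested with edgeR 4.0.16 (quasi-likelihood, intercept and group) in R 4.3.3, with Benjamini-Hochberg adjustment over all genes and a threshold of 0.05. The test was checked on simulated data. Standard errors and 95% intervals come from the F statistic, and profiles use log2 CPM with a prior count of 2. Alternatives were RLE, upper quartile, library totals, neuron marker counts, no filter, a stricter filter (50 counts in all and 1 CPM or more in 3 libraries), DESeq2 1.42.0, limma 3.58.1 (voom, with and without sample weights), a replicate block, and each library left out in turn. Neuron marker scaling without Calb2 was added after seeing the data. No replicate pair was alike within sampling noise (chi-square statistics were 86.2 to 300 times their degrees of freedom).

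The members and lists were chosen with earlier results of these data known. The text names all members, up to 4 genes of each pathway list with the smallest p, list genes at 0, the most abundant markers, the 3 nearest profiles per member, and Fos, Egr1, Omp, Obp2a and Rps6, where used. Fars2, Adcy2, Ano1, Ano2, Ntrk2, Sort1, Nptxr, Gria1 to Gria4, Shank3, Homer2, Homer3, Egr2, Egr3, Nr4a1, Scg2, Pcsk1 and Pcsk2 were added after their values were seen.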

Additional observations from a re-analysis of the deposited data

How the results depend on the processing

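Members past the adjusted threshold numbered 0 under all 17 alternatives. Over all genes, 120 passed without a filter, 127 in DESeq2, 8 in limma-voom and 12 in limma-voom with sample weights, and of the pathway genes 2 passed without a filter and 2 in DESeq2. The log2 fold changes of Homer1, Bdnf and Nptx2 kept their sign throughout, at 0.44 to 1.23, -2.09 to -0.45 and 0.073 to 1.15. That of Arc turned positive with library totals (0.16), with neuron marker counts (0.31) and without control exposure replicate 2 (0.071) or pup exposure replicate 1 (0.33), and with single libraries left out ran from -0.40 to 0.33. That of Nrn1 was positive with library totals (0.32), neuron marker counts (0.28), no filter (0.025), the stricter filter (0.00036), limma-voom (0.13) and the replicate block (0.0019), and ran from -0.44 to 0.27 with single libraries left out. Library totals and neuron marker counts moved the median of all genes from 0.030 to 0.31 and 0.39, and relative to these medians Arc and, with neuron marker counts, Nrn1 lay below 0; without Calb2 among the markers the median was 0.032. The cause of the other changes was not tested. Deviations of same-numbered libraries had correlations of -0.035, 0.18 and 0.074, beside -0.256 to 0.139 for differently numbered ones. They showed no clear pairing, though that of replicate 2 was the largest of all, and the numbers were not taken as pairs. With the replicate block 0 genes passed. The ratio of neuron marker shares, pup over control exposure, was 0.889 and ran from 0.715 without control exposure replicate 3 to 1.10 without control exposure replicate 1, which turned its direction. DESeq2 gave no adjusted p for Bdnf and Nptx2. At 0 to 114 counts per library for Bdnf and Nptx2, and under 20 for Npas4, Vgf and Nptx1, depth limits what can be seen.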
